A study of Mus musculus with 9 samples.

Results

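The collagen genes are the rows of the deposited count table whose symbol has the form Col, a type number, the letter a and a chain number. The table holds 44 such symbols among 52459. The 32 with at least 10 counts in 3 or more libraries are described here as the reported collagens: 8 fibrillar, 7 basement membrane and 17 minor members. All 32 were tested.

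Islets of Langerhans from mice aged 12 weeks were profiled by RNA sequencing, with 3 libraries from db/db mice, 3 from db/+ mice and 3 from wild-type (WT) mice. The db allele is a mutation of Lepr, the leptin receptor gene. db/db mice carry it on both chromosomes and, as background, become obese and diabetic, db/+ mice carry 1 copy, and WT mice carry none. The labels give all 9 libraries the same strain, BKS.Cg-Dock7m +/+ Leprdb/J, so the WT group too is listed under the stock name that holds the Leprdb and Dock7m alleles. They state neither the sex of the mice nor whether the libraries of a group came from separate animals or from pools, so p-values measure the spread between these libraries, which may be partly technical. Libraries are called here by group and number, and the number is only a name.

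Collagens are secreted or membrane proteins in which 3 chains wind into a triple helix. Fibrillar types such as I, III and V assemble into the banded fibres of connective tissue and scar, type IV forms the network of basement membranes, and the remaining types attach to fibrils, form beaded filaments or other networks, or span the cell membrane. In pancreatic islets, basement membrane collagen is laid down mainly around capillaries, while stellate cells, fibroblasts and pericytes are the usual sources of fibrillar collagen.

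Library totals were 8860024 to 9260105 counts in db/db, 11164775 to 11734886 in db/+ and 9558955 to 11473420 in WT. Gene levels are in CPM, that is, scaled to the size of each library, and 3 counts per library, the most a count of 0 allows, are 0.238 to 0.412 CPM. Intervals and floors cover counting error only. Lepr had 9.47, 2.60 and 2.05 CPM in db/db, 4.37, 1.52 and 1.63 CPM in db/+ islets and 3.17, 1.72 and 1.93 CPM in WT, but the db allele alters splicing, and a whole-gene count cannot test the labels for that. The libraries db/db 1, WT 1 and WT 3 each held both Xist (308, 565 and 596 CPM) and counts of 4 Y-linked genes (176, 219 and 235 CPM in sum). In db/db 2 and db/db 3, Xist had 948 and 858 CPM and the Y-linked sum 1.11 and 0.108 CPM. In db/+ the Y-linked sum was 417, 373 and 407 CPM and Xist at most 0.506 CPM. WT 2 had 343 CPM of the Y-linked sum and 0.722 CPM of Xist. Every db/db library thus held Xist and no db/+ library held more than 0.506 CPM, so this sex-linked difference and the genotype cannot be told apart against db/+. The 2 transcripts Gm42418 and Lars2, where ribosomal RNA reads often collect, summed to 217305 CPM in db/db 1 and 152229.9 CPM in db/db 2, but to 554 CPM in db/db 3. Every WT library held 18361 to 25167 CPM of these transcripts, whereas no db/+ library exceeded 223.7 CPM. The sum thus separated WT from db/+ without overlap, with db/db 3 between these groups and the other db/db libraries above both. The 6 islet hormone genes, the defining markers of the tissue, had sums of 100446 to 134058 CPM in db/db, 115018 to 130416 CPM in db/+ islets and 97646 to 126864 CPM in WT.

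Collagen transcripts were higher in db/db islets in all 3 classes, and the fibrillar class stood furthest from the controls. The 32 reported collagens summed to 2950.1, 1456 and 2182 CPM in db/db, against 841, 696 and 696 CPM in db/+ islets and 897, 761 and 719 CPM in WT. The fibrillar members summed to 1499, 490.3 and 1061 CPM in db/db, against 177, 86.8 and 99.8 CPM in db/+ islets and 127, 81.4 and 61.9 CPM in WT. The lowest db/db library therefore held more fibrillar collagen than the highest library of either other group. Basement membrane members summed to 851, 656 and 724 CPM in db/db, against 468, 435 and 416 CPM in db/+ islets and 519, 449 and 443 CPM in WT, again without overlap. Minor members summed to 600.1, 311 and 398 CPM in db/db, against 197, 174 and 181 CPM in db/+ islets and 252, 230.2 and 214 CPM in WT.

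Of the 32 reported collagens, 25 rose and 2 fell in db/db against WT at an adjusted p under 0.05 by edgeR's quasi-likelihood test, and 5 did not pass. The 25 include Col10a1, which met the count minimum in db/db libraries alone. Col9a2, which fell, and Col26a1 met it in db/+ and WT libraries alone. Of all 16826 genes tested in that comparison, 41.7% passed, 21.8% higher and 19.9% lower. The median log2 fold change was 2.45 over the reported collagens and 0.01 over all genes tested. All 8 fibrillar members rose, with a median of 3.54. In the basement membrane class 5 of 7 rose, with a median of 0.72, and in the minor class 12 of 17 rose and 2 fell, with a median of 2.48. Between db/db and db/+, 23 reported collagens rose, 2 fell and 7 did not pass, where 40.3% of all genes passed, 20.6% higher and 19.7% lower. Fibrillar members again rose in 8 of 8 cases, with a median of 3.07, basement membrane members in 4 of 7, with a median of 0.91, and minor members in 11 of 17, with a median of 1.95. In 25 collagens all 3 db/db libraries lay above all 3 WT libraries and in 3 they lay below them, where 26.2% and 25.3% of all genes had such non-overlapping groups.

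The 2 comparisons share the db/db libraries, and their values stand side by side below. With the mean level of acinar genes as a covariate, 12 collagens passed against WT and 25 against db/+, where 4172 and 6803 of all 16826 genes passed. With the letter that opens the library titles as a covariate, 13 and 7 passed, where 4425 and 2033 of all 16826 genes passed. All db/db titles open with H and all db/+ titles with G, so that letter and the db/db genotype cannot be told apart against db/+. In that fit the letter is set by WT 3 (H) against WT 1 and WT 2 (G) alone, and the collagen calls against db/+ rest on that difference. A fit without db/db 1, WT 1 and WT 3 leaves WT 2 as the only WT library, so no calls are counted from it. With each of the acinar and title letter covariates, Col4a1, Col4a2, Col18a1, Col11a2, Col27a1, Col6a6, Col16a1, Col20a1, Col7a1 and Col13a1 passed against WT. So did Col10a1, with the count minimum met in db/db alone. Against db/+ 7 passed with each of these covariates, namely Col4a1, Col4a2, Col18a1, Col11a2, Col27a1, Col16a1 and Col20a1. In a test against a 1.5-fold change, the calls of Col4a1, Col4a2, Col6a6 and Col13a1 against WT ended. That of Col4a1 against db/+ ended too.

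**Figure D1:**
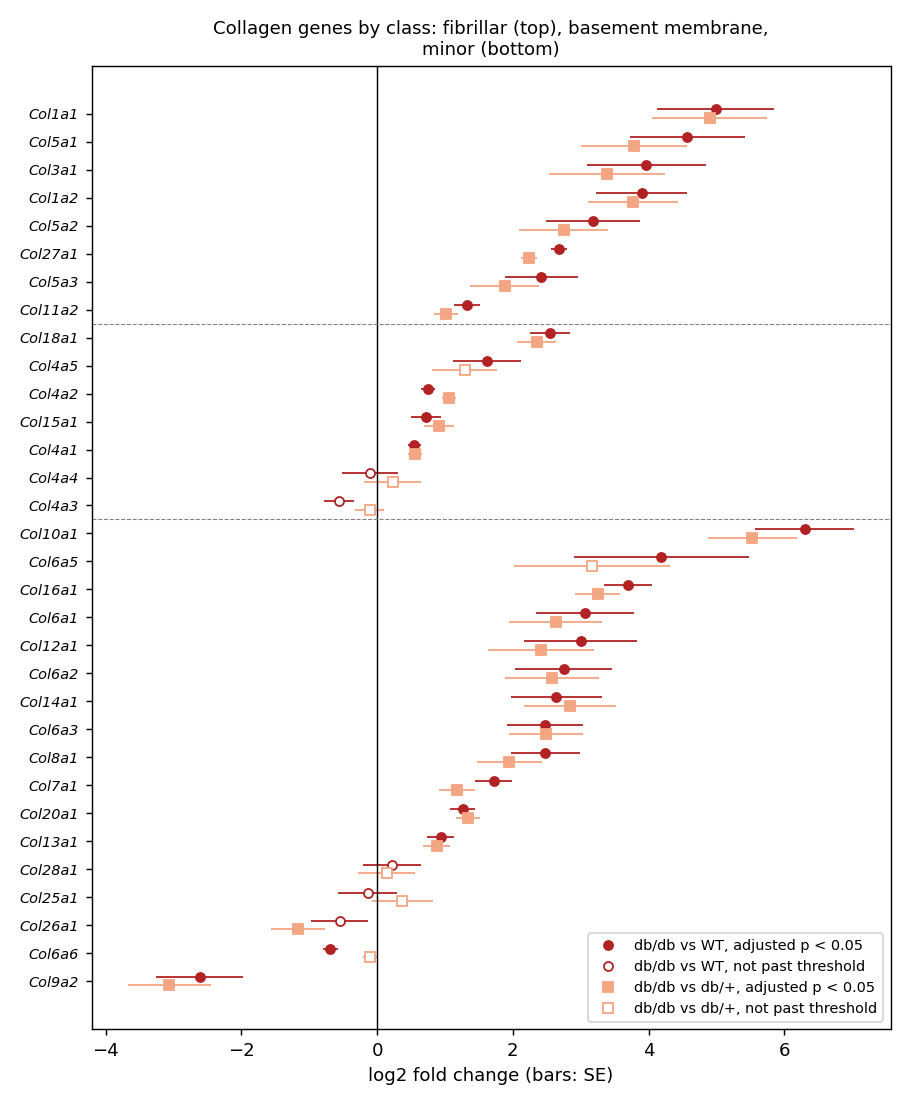
Log2 fold change of each reported collagen (points, with bars of 1 standard error) in db/db against WT (red circles) and in db/db against db/+ (orange squares), by class, with open symbols for an adjusted p of 0.05 or more. All 8 fibrillar members lie right of 0 in both comparisons, and Col6a6 and Col9a2 are the members that fell against WT.

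Markers of other cell types were counted in the same fit, in which 21.8% of all genes rose and 19.9% fell against WT, with a median log2 fold change of 0.01. Of 14 mesenchyme markers 12 were tested, and 8 rose and 0 fell in db/db against WT, with a median log2 fold change of 1.84. Their summed level was 569 to 882 CPM in db/db, 225 to 293 CPM in db/+ islets and 246 to 299.8 CPM in WT. The fibroblast and stellate receptor gene Pdgfra had 21.4, 1.73 and 4.31 CPM in db/db, 2.34, 0.506 and 0.489 CPM in db/+ islets and 1.90, 0.722 and 0.305 CPM in WT, so db/db 1 stood above the rest and db/db 2 lay within the range of the controls. The pericyte marker Rgs5 had 501, 397 and 414 CPM in db/db, 189.5, 164 and 160 CPM in db/+ islets and 197, 169.9 and 160.4 CPM in WT. Gli1 was at 0 in db/+ 3 and all WT libraries, and Mfap4 in db/+ 2, db/+ 3 and WT 3.

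Duct markers rose in 8 of 8 cases against WT, and summed to 859.9 to 1396 CPM in db/db, 411 to 445 CPM in db/+ islets and 390.4 to 410.1 CPM in WT. Acinar markers rose in 4 of 10 cases and fell in 0, where 21.8% of all genes rose and 19.9% fell. Their median log2 fold change was 1.65, and all 10 lay above 0. They summed to 13175 to 36109.7 CPM in db/db, 11385 to 25846 CPM in db/+ islets and 4951 to 9499 CPM in WT. Endothelial markers rose in 6 of 11 cases and fell in 1, and summed to 673 to 894 CPM in db/db, 612 to 685 CPM in db/+ islets and 612 to 672 CPM in WT. No duct or acinar marker was at 0 in any library, and Cldn5 was at 0 in WT 3. Macrophage markers rose in 3 of 7 cases and fell in 0, with a median log2 fold change of 0.36. They summed to 142 to 197 CPM in db/db, 79.6 to 102 CPM in db/+ islets and 81.2 to 103 CPM in WT. The part of these cells in the collagen differences was not tested, and in bulk islets a change in the number of cells of a type and a change in RNA per cell cannot be told apart.

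Promoter windows are shown for members that define the contrasts in the family. Col1a2 and Col3a1 were the fibrillar genes with the most counts in db/db, Col18a1 had the largest basement membrane difference, and Col10a1 and Col9a2 had the largest differences upward and downward among the minor members. Each window is the 150 bases before the RefSeq start, on the transcript's strand, from GRCm38.p6, the assembly behind mm10. Capitals mark 3 motifs searched on either strand, namely the CCAAT box (CCAAT), then the TATA element written as TATAAA, and finally the GC box in the form GGGCGG.
Col1a2, chr6:4505468-4505617, plus strand: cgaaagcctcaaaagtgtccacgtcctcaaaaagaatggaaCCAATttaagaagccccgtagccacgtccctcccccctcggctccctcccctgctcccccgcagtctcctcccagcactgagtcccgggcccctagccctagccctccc
Col3a1, chr1:45311388-45311537, plus strand: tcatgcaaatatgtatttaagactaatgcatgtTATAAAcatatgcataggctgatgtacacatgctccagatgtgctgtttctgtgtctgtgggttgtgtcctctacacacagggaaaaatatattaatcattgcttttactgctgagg
Col18a1, chr10:77166531-77166680, minus strand: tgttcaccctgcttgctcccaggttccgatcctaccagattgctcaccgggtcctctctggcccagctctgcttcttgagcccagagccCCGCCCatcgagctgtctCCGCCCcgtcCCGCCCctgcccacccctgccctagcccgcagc
Col10a1, chr10:34389831-34389980, plus strand: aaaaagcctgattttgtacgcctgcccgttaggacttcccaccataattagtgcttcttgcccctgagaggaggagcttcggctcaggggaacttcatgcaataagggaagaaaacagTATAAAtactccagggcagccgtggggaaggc
Col9a2, chr4:121039416-121039565, plus strand: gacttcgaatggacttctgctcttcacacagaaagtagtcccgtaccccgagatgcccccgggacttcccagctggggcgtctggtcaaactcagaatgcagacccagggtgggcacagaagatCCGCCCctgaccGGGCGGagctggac

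The Col1a2 window has CCAAT 109 bases before the start. TATAAA lies 32 bases before the start of Col10a1 and 117 bases before that of Col3a1. Col18a1 holds GGGCGG at 61, 43 and 33 bases before its start, each on the opposite strand, and Col9a2 holds it at 26 bases on the opposite strand and at 14 bases on the transcript's strand. Of the 26 reported collagens with a window, 5 (19.2%) held CCAAT, 3 (11.5%) held TATAAA and 14 (53.8%) held GGGCGG. Here a collagen counted if any of its windows held the motif. Over all 32851 single windows of the same length the shares were 24.5%, 7.57% and 28.6%. Shares per gene and per window are in unlike units and cannot be set against each other. The printed matches do not overlap one another, and a match describes the letters only.

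The type I and type III genes carried most of the fibrillar signal in db/db. Col1a1, the alpha 1 chain of type I collagen, had 167, 32.7 and 118 CPM in db/db, against 6.71, 1.69 and 2.12 CPM in db/+ islets and 5.40, 2.98 and 1.22 CPM in WT. Col1a2, the other chain of type I, had 337, 72.2 and 206 CPM in db/db, against 22.2, 11.3 and 11.4 CPM in db/+ islets and 18.5, 13.5 and 8.74 CPM in WT. Col3a1, which forms the thin reticular fibres of soft tissue, had 711, 168 and 426 CPM in db/db, against 77.5, 17.3 and 29.0 CPM in db/+ islets and 46.5, 23.7 and 11.9 CPM in WT. In all 3 genes db/db 1 was highest and db/db 2 lowest of its group, and db/db 2 still lay above every db/+ and WT library. Col1a1 averaged 106 ± 68.2 CPM in db/db, 3.51 ± 2.78 CPM in db/+ islets and 3.20 ± 2.10 CPM in WT (SD, n = 3 libraries each).

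The log2 fold change of Col1a1 was 4.99 ± 0.86 against WT (standard error here and below; adjusted p = 0.00458) and 4.90 ± 0.85 against db/+ (adjusted p = 0.00475). For Col1a2 it was 3.90 ± 0.67 against WT (adjusted p = 0.00455) and 3.77 ± 0.66 against db/+ (adjusted p = 0.00511). For Col3a1 it was 3.97 ± 0.88 against WT (adjusted p = 0.0131) and 3.39 ± 0.85 against db/+ (adjusted p = 0.0210). With each library left out in turn, the value against WT was 4.51 to 5.61 for Col1a1 and 3.34 to 4.29 for Col1a2. The Col3a1 difference from db/+ lost its call without db/db 1 (2.86, adjusted p = 0.0506), db/+ 2 (3.02, 0.0655) or db/+ 3 (3.19, 0.0750). None of the 3 genes passed against WT with the acinar covariate, and none passed against db/+ with the title letter as a covariate. With the title letter Col3a1 did not pass against WT either.

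**Figure D2:**
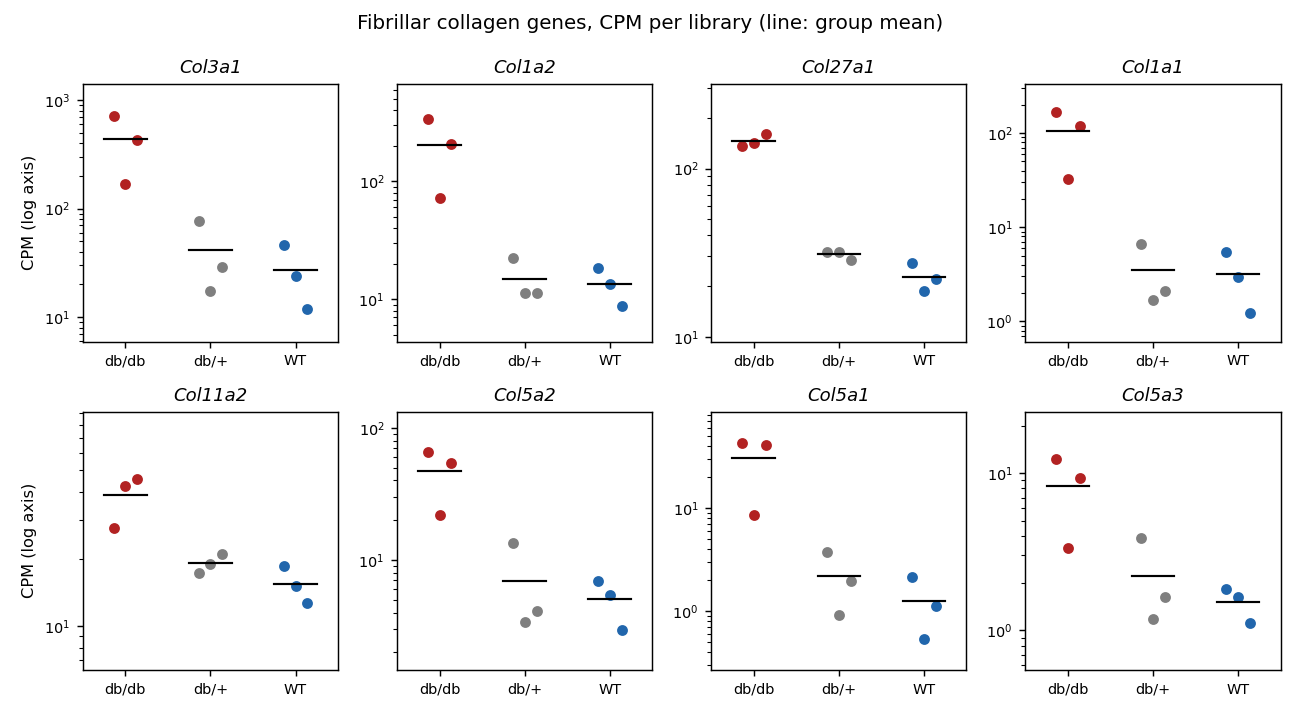
CPM of the 8 fibrillar collagen genes in each library (points, log axis that differs between panels) with the group mean (line), for db/db, db/+ and WT. Every db/db point lies above every WT point, while in Col5a3 the lowest db/db library (3.34 CPM) lies below the highest db/+ library (3.88 CPM).

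Type V collagen, which sits inside type I fibrils and starts their assembly, rose in all 3 of its chains. Col5a1 had 43.2, 8.67 and 41.5 CPM in db/db, against 3.80, 0.928 and 1.96 CPM in db/+ islets and 2.14, 0.542 and 1.12 CPM in WT. Col5a2 had 65.9, 21.8 and 54.1 CPM in db/db, against 13.5, 3.37 and 4.08 CPM in db/+ islets and 6.90, 5.42 and 2.95 CPM in WT. Col5a3 had 12.3, 3.34 and 9.27 CPM in db/db, against 3.88, 1.18 and 1.63 CPM in db/+ islets and 1.82, 1.63 and 1.12 CPM in WT. db/db 2 was lowest of its group in each chain, and the Col5a3 groups of db/db and db/+ overlapped. Log2 fold changes against WT were 4.57 ± 0.85 for Col5a1 (adjusted p = 0.00575), 3.18 ± 0.69 for Col5a2 (0.0109) and 2.42 ± 0.54 for Col5a3 (0.00533). Against db/+ they were 3.79 ± 0.78 (0.00893), 2.75 ± 0.66 (0.0166) and 1.88 ± 0.51 (0.0150). The calls against db/+ ended without db/+ 2 or db/+ 3 in Col5a2 (adjusted p = 0.0525 and 0.0576) and in Col5a3 (0.0510 and 0.0616). For Col5a1 the calls in both comparisons ended when limma-voom replaced edgeR, and with the title letter as a covariate.

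Col27a1 and Col11a2 rose with less spread among the db/db libraries than the other fibrillar genes. The ratio of the highest to the lowest db/db library was 1.18 in Col27a1 and 1.66 in Col11a2. Col27a1, a fibrillar chain known from developing cartilage, had 136, 141 and 159.9 CPM in db/db, against 32.0, 32.1 and 28.7 CPM in db/+ islets and 27.3, 18.7 and 22.1 CPM in WT. Its log2 fold change was 2.68 ± 0.12 against WT (adjusted p = 4.33e-09) and 2.24 ± 0.12 against db/+ (adjusted p = 1.57e-08), and was 2.55 to 2.83 against WT with each library left out. Col11a2, a type XI chain of cartilage fibrils, had 27.6, 42.5 and 45.7 CPM in db/db, against 17.3, 19.0 and 21.0 CPM in db/+ islets and 18.5, 15.1 and 12.7 CPM in WT. Its log2 fold change was 1.32 ± 0.19 against WT (adjusted p = 2.03e-04) and 1.02 ± 0.18 against db/+ (adjusted p = 0.00109). In both genes db/db 1 was the lowest db/db library, whereas it was the highest in the type I, III and V genes.

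Among the basement membrane genes, the 2 chains of the common type IV network rose, by less than most fibrillar genes and from a higher level in the controls. Col4a1 had 463, 391 and 429 CPM in db/db, against 304, 290 and 278 CPM in db/+ islets and 328, 286 and 260.1 CPM in WT. Col4a2, its partner chain, had 265, 206 and 221 CPM in db/db, against 121, 109 and 103 CPM in db/+ islets and 143, 126 and 143 CPM in WT. The db/db libraries lay above all others in both genes. The log2 fold change of Col4a1 was 0.55 ± 0.10 against WT (adjusted p = 4.25e-04) and 0.56 ± 0.10 against db/+ (adjusted p = 4.25e-04). That of Col4a2 was 0.75 ± 0.10 against WT (adjusted p = 4.77e-05) and 1.06 ± 0.10 against db/+ (adjusted p = 2.59e-06). The 2 genes lie head to head on chromosome 8, where their annotations overlap by 85 bases, and counts in that overlap are uncertain because the strand setting of the counting is not given in the sources used here.

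The other type IV chains, known for the filtration barrier of the kidney, were low in islets. Col4a3 had 4.94, 4.09 and 3.02 CPM in db/db, 4.45, 4.56 and 3.92 CPM in db/+ islets and 6.27, 5.24 and 6.10 CPM in WT. Its log2 fold change against WT, -0.56 ± 0.22, missed the threshold (adjusted p = 0.0561) although all db/db libraries lay below all WT libraries, and it passed without db/db 1 (-0.73, 0.0231). Col4a4 had 5.35, 1.73 and 1.83 CPM in db/db, 3.64, 1.86 and 1.96 CPM in db/+ islets and 3.25, 2.98 and 3.15 CPM in WT, with the highest and the lowest of the 9 values both in db/db. Col4a3 and Col4a4 overlap by 114 bases on chromosome 1. Col4a5 had 11.8, 2.85 and 4.09 CPM in db/db, against 2.83, 2.70 and 2.04 CPM in db/+ islets and 2.78, 1.26 and 1.93 CPM in WT. It rose against WT (1.62 ± 0.50, adjusted p = 0.0246), but its 2 lower db/db libraries lay close to the highest control, and it was no longer called without db/db 1 (0.79, adjusted p = 0.0837), WT 2 (1.37, 0.0820) or WT 3 (1.58, 0.0745). Against db/+ it gave 1.29 ± 0.48 (adjusted p = 0.0560), and passed without db/db 2 (1.63, 0.0107) or db/db 3 (1.52, 0.0447).

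The multiplexins, which bridge basement membranes and the matrix beneath, both rose but to unequal degrees. Col18a1, whose end fragment is the vessel growth inhibitor endostatin, had 40.9, 20.7 and 25.3 CPM in db/db, against 7.52, 4.72 and 4.65 CPM in db/+ islets and 5.95, 5.15 and 3.56 CPM in WT. Col15a1 had 59.6, 29.5 and 39.5 CPM in db/db, against 24.0, 21.7 and 22.4 CPM in db/+ islets and 29.1, 22.6 and 26.1 CPM in WT. In Col15a1 the lowest db/db library exceeded the highest WT library by little. The log2 fold change of Col18a1 was 2.55 ± 0.30 against WT (adjusted p = 9.11e-05) and 2.35 ± 0.29 against db/+ (adjusted p = 1.37e-04). That of Col15a1 was 0.72 ± 0.22 against WT (adjusted p = 0.0247) and 0.91 ± 0.22 against db/+ (adjusted p = 0.00859), and the call against WT ended without WT 2 (0.62, 0.0830) or WT 3 (0.72, 0.0705).

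**Figure D3:**
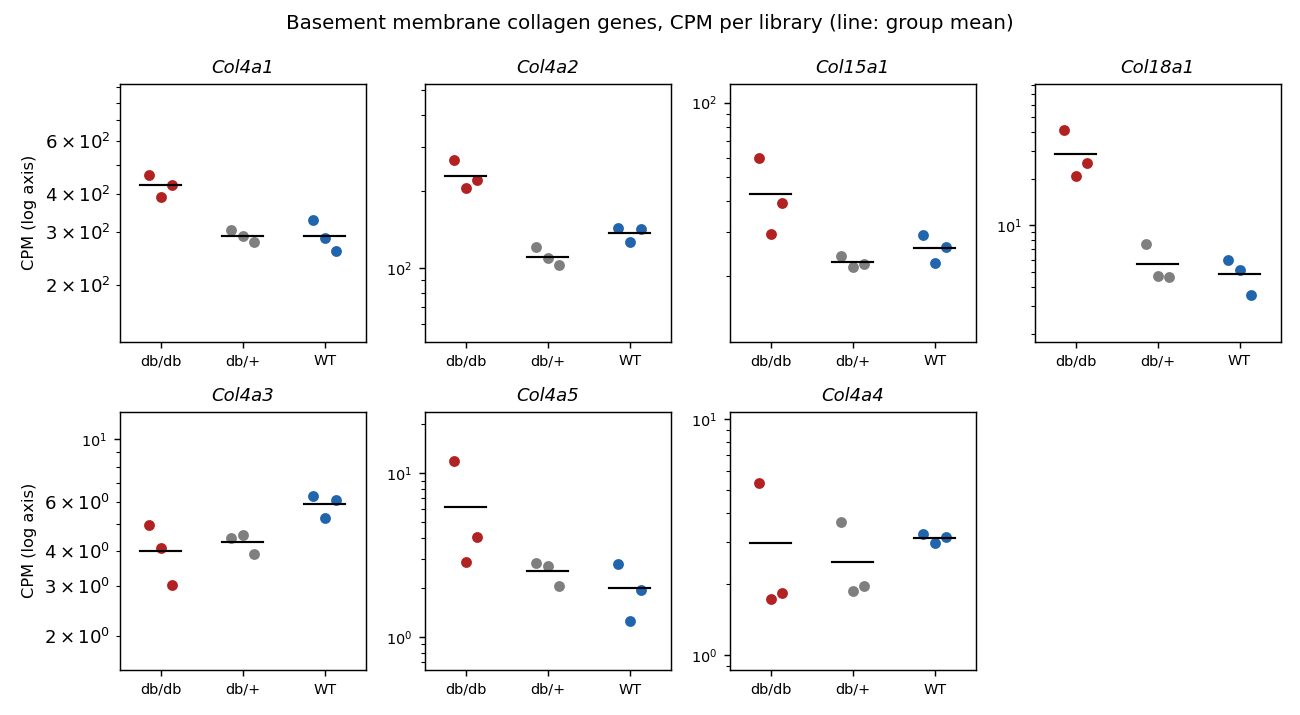
CPM of the 7 basement membrane collagen genes in each library (points, log axis that differs between panels) with the group mean (line), for db/db, db/+ and WT. Col18a1 shows the widest gap, with db/db libraries at 20.7 to 40.9 CPM and WT libraries at 3.56 to 5.95 CPM, while the groups of Col4a4 overlap.

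Among the minor collagens, 4 of the 5 reported type VI genes rose in db/db against WT and 1 fell. Type VI collagen forms beaded filaments around cells, built from the chains of Col6a1, Col6a2 and an additional chain, such as that of Col6a3, Col6a5 or Col6a6. Col6a1 had 85.6, 20.1 and 39.9 CPM in db/db, against 13.3, 4.39 and 5.71 CPM in db/+ islets and 8.73, 4.97 and 3.25 CPM in WT. Col6a2 had 57.4, 13.6 and 20.6 CPM in db/db, against 8.73, 2.36 and 4 CPM in db/+ islets and 5.71, 4.24 and 3.35 CPM in WT. Col6a3 had 96.1, 21.8 and 45.8 CPM in db/db, against 12.8, 8.44 and 7.67 CPM in db/+ islets and 10.2, 10.3 and 8.43 CPM in WT. In these 3 genes db/db 2 was the lowest db/db library and above all controls. Log2 fold changes against WT were 3.06 ± 0.72 (adjusted p = 0.0159), 2.75 ± 0.71 (0.0210) and 2.48 ± 0.56 (0.0126). Against db/+ they were 2.63 ± 0.69 (0.0244), 2.58 ± 0.69 (0.0251) and 2.49 ± 0.55 (0.0125). The calls of Col6a1 ended without WT 2 or WT 3 against WT (0.0543 and 0.0541) and without db/+ 2, db/+ 3 or db/db 1 against db/+ (0.0790, 0.0813 and 0.0505). Those of Col6a2 ended without any WT library against WT (0.0550 to 0.0709) and without db/+ 2 or db/+ 3 against db/+ (0.0741 and 0.0836).

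Col6a6 was the collagen that fell while being among the most abundant. It had 108, 116 and 87.2 CPM in db/db and 95.9, 119.4 and 118.7 CPM in db/+, against 176, 164 and 161 CPM in WT. All libraries of db/db and of db/+ lay below all WT libraries, and db/db and db/+ overlapped. The log2 fold change of db/db against WT was -0.69 ± 0.11 (adjusted p = 3.17e-04), and that of db/db against db/+ was -0.10 ± 0.11 (adjusted p = 0.509). Its neighbour Col6a5 on chromosome 9, 27823 bases away, had 20.4, 1.24 and 1.94 CPM in db/db, against 1.29, 0.506 and 0.734 CPM in db/+ islets and 0.635, 0.361 and 0.203 CPM in WT. Col6a5 rose against WT (4.19 ± 1.29, adjusted p = 0.0373), a size that db/db 1 sets: without that library the value was 1.92 (adjusted p = 0.0129). The call ended without any db/+ library (0.0574 to 0.0620) or any WT library (0.0908 to 0.110). Against db/+ it gave 3.17 ± 1.15 (adjusted p = 0.0662), and passed without db/db 2 (0.0198) or db/db 3 (0.0373).

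Of the 5 reported FACIT genes, whose products sit on the surface of fibrils, 4 rose and Col9a2 fell. Col16a1 had 57.2, 41.6 and 64 CPM in db/db, against 9.14, 2.95 and 4.98 CPM in db/+ islets and 3.81, 4.33 and 4.37 CPM in WT. This gave a log2 fold change of 3.70 ± 0.35 against WT (adjusted p = 6.04e-05) and 3.25 ± 0.33 against db/+ (adjusted p = 1.01e-04). Col20a1 had 17.0, 23.8 and 25.8 CPM in db/db, against 9.54, 6.92 and 9.87 CPM in db/+ islets and 9.76, 9.84 and 8.23 CPM in WT. That gene had a log2 fold change of 1.26 ± 0.18 against WT (adjusted p = 7.99e-05) and 1.34 ± 0.18 against db/+ (adjusted p = 4.76e-05). The db/db libraries of both genes lay close together and above all controls.

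Col14a1 and Col12a1, FACIT types of tendon, skin and scar, varied more among the db/db libraries. Col14a1 had 87.4, 22.7 and 27.8 CPM in db/db, against 9.30, 4.98 and 4.73 CPM in db/+ islets and 9.76, 8.22 and 3.56 CPM in WT. Col12a1 had 12.5, 6.81 and 39.5 CPM in db/db, against 6.55, 1.86 and 2.61 CPM in db/+ islets and 3.33, 2.53 and 1.42 CPM in WT. Col14a1 was highest in db/db 1 and Col12a1 in db/db 3, and the lowest db/db value of Col12a1 was close to the highest db/+ value. Log2 fold changes were 2.64 ± 0.67 for Col14a1 (adjusted p = 0.0208) and 3 ± 0.83 for Col12a1 (0.0274) against WT, and 2.84 ± 0.68 (0.0169) and 2.42 ± 0.78 (0.0480) against db/+. Against WT the Col14a1 call ended without WT 2 or WT 3 (0.0579 and 0.0629) and the Col12a1 call without any WT library (0.0669 to 0.0866). Against db/+ the Col14a1 call ended without db/+ 2 or db/+ 3 (0.0618 and 0.0608). The Col12a1 call against db/+ ended without db/db 1, db/db 3, db/+ 2, db/+ 3 or any WT library (0.0655 to 0.136), and its fold change without db/db 3 was 1.39.

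Col10a1 and Col9a2, both best known from cartilage, moved in opposite directions from low counts. Col10a1, the network collagen of hypertrophic cartilage, had 64, 32 and 39 counts in db/db, against 1, 0 and 3 counts in db/+ and 2, 0 and 0 counts in WT. It reached 10 counts in db/db libraries alone, so it entered the reported set through the group where it was high. Pooled over libraries, 135 counts in db/db against 2 in WT gave a CPM ratio of 91.8, with a 95% counting interval of 24.9 to 766, and against 4 in db/+ a ratio of 50 (19.1 to 186). The difference passed the edgeR test against WT (adjusted p = 1.99e-05) and db/+ (adjusted p = 2.59e-05). Col9a2, a chain of the FACIT type IX, had 0.137, 0.743 and 0 CPM in db/db, against 2.34, 2.11 and 2.94 CPM in db/+ islets and 2.38, 1.35 and 1.63 CPM in WT. Pooled counts were 7 in db/db, 90 in db/+ and 61 in WT, a ratio of 0.115 (0.045 to 0.247) to db/+ and 0.156 (0.0602 to 0.342) to WT. Col9a2 reached 10 counts in db/+ and WT libraries alone, so it entered the reported set through the groups where it was high. Col9a2 fell against WT (adjusted p = 0.00516) and against db/+ (adjusted p = 0.00150), and with each library left out its log2 fold change against WT was -4.65 to -1.97. In both comparisons the call ended with the title letter, or with the level of the Y-linked genes, as a covariate.

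Among the remaining minor members, Col8a1, Col7a1 and Col13a1 rose in both comparisons. Col8a1, a network collagen of vessel walls, had 12.1, 3.72 and 10.3 CPM in db/db, against 3.88, 1.35 and 1.47 CPM in db/+ islets and 1.82, 1.17 and 1.63 CPM in WT, so db/db 2 overlapped with db/+ 1. It rose on the log2 scale by 2.48 ± 0.51 against WT (adjusted p = 0.00312) and 1.95 ± 0.48 against db/+ (adjusted p = 0.00906). Col7a1, which forms the anchoring fibrils beneath epithelia, had 9.74, 8.42 and 9.48 CPM in db/db, against 2.26, 4.89 and 5.06 CPM in db/+ islets and 3.25, 2.53 and 2.54 CPM in WT. Its 3 db/db libraries were close together, with a log2 fold change of 1.72 ± 0.27 against WT (adjusted p = 2.27e-04) and 1.18 ± 0.26 against db/+ (adjusted p = 0.00281). Col13a1, a transmembrane collagen of cell junctions, had 20.3, 20.3 and 17.3 CPM in db/db, against 14.6, 9.37 and 7.50 CPM in db/+ islets and 10.6, 10.4 and 9.04 CPM in WT. It rose by 0.94 ± 0.20 against WT (adjusted p = 0.00236) and 0.88 ± 0.20 against db/+ (adjusted p = 0.00359).

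Col26a1 fell against db/+ and not against WT. It reached the minimum of 10 counts in db/+ and WT libraries alone, so it entered the reported set through groups other than db/db. It had 0.823, 0.619 and 0.539 CPM in db/db, against 1.94, 1.18 and 1.31 CPM in db/+ islets and 0.873, 0.813 and 1.22 CPM in WT. The log2 fold change against db/+ was -1.16 ± 0.40 (adjusted p = 0.0320), and the call ended without db/db 2, db/db 3, db/+ 1 or db/+ 3 (0.0538 to 0.132). Against WT it gave -0.55 ± 0.42 (adjusted p = 0.318). Col28a1 and Col25a1, of which Col25a1 is a transmembrane collagen found in amyloid plaques of the brain, passed in neither comparison, with log2 fold changes against WT of 0.22 ± 0.43 (adjusted p = 0.709) and -0.14 ± 0.43 (adjusted p = 0.824). Col28a1 averaged 2.97 ± 0.599 CPM in db/db, 2.67 ± 1.27 CPM in db/+ islets and 2.51 ± 1.38 CPM in WT (SD, n = 3 each).

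At the edge of the reporting rule, Col10a1 had 10 counts in 3 libraries, Col6a5 in 4, Col26a1 in 5 and Col9a2 in 6, while Col9a3 and Col8a2 had them in 2 libraries and Col4a6 and Col6a4 in 1. The 12 symbols not reported were Col2a1, Col11a1, Col24a1, Col4a6, Col6a4, Col8a2, Col9a1, Col9a3, Col17a1, Col19a1, Col22a1 and Col23a1. Of these Col9a3 and Col19a1 had enough counts over all libraries to be tested, and Col19a1 was higher in db/db than in db/+ (log2 fold change 1.39 ± 0.46, adjusted p = 0.0265) but did not pass against WT (1.11 ± 0.45, adjusted p = 0.0624). Col9a3 passed in neither (0.87 ± 0.53, adjusted p = 0.210 against db/+, and 1.04 ± 0.55, adjusted p = 0.145 against WT).

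Between db/+ and WT the collagens hardly separated. Of the 32 reported members 0 rose and 1 fell by edgeR's test, where 1.43% of all genes passed, 0.606% higher and 0.82% lower, and log2 fold changes ran from -0.59 to 1.02 with a median of 0.25 (0.02 over all genes). The member that fell was Col6a6 (-0.59 ± 0.11, adjusted p = 0.0361), and that call ended when any db/+ or WT library was left out (adjusted p = 0.0557 to 0.150). In 1 collagen all db/+ libraries lay above all WT libraries and in 3 they lay below them, where 12.1% and 10.4% of all genes did. Col27a1 lay higher in every db/+ library (28.7 to 32.1 CPM) than in every WT library (18.7 to 27.3 CPM) without passing (0.44 ± 0.12, adjusted p = 0.102), and passed without WT 1 (0.60, 0.0351). Col4a2 lay lower in every db/+ library (103 to 121 CPM) than in every WT library (126 to 143 CPM) without passing (-0.31 ± 0.10, adjusted p = 0.147), and passed without db/db 1 (-0.32, 0.0452). Col4a3 likewise lay lower in db/+ (3.92 to 4.56 CPM) than in WT (5.24 to 6.27 CPM) without passing (-0.45 ± 0.21, adjusted p = 0.328).

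The db/db libraries differed from each other most in the fibrillar class. Over the 31 members with a count in each db/db library, the ratio of the highest to the lowest db/db library had a median of 2.69, and it was above 3 in 15 members and below 2 in 13. Its median was 3.96 in the fibrillar class, 1.98 in the basement membrane class and 2.46 in the minor class. db/db 1 was highest in 25 of 32 members and db/db 2 lowest in 22. The ratio reached 5.12 in Col1a1, 4.98 in Col5a1 and 16.5 in Col6a5, against 1.18 in Col27a1, 1.18 in Col4a1, 1.16 in Col7a1 and 1.17 in Col13a1. Dcn, which encodes the fibril-associated proteoglycan decorin, had 126, 10.5 and 20.3 CPM in db/db, 16.2, 1.94 and 3.67 CPM in db/+ islets and 16.7, 9.48 and 1.02 CPM in WT, so it too was highest in db/db 1 and db/db 2 lay within the controls.

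**Figure D4:**
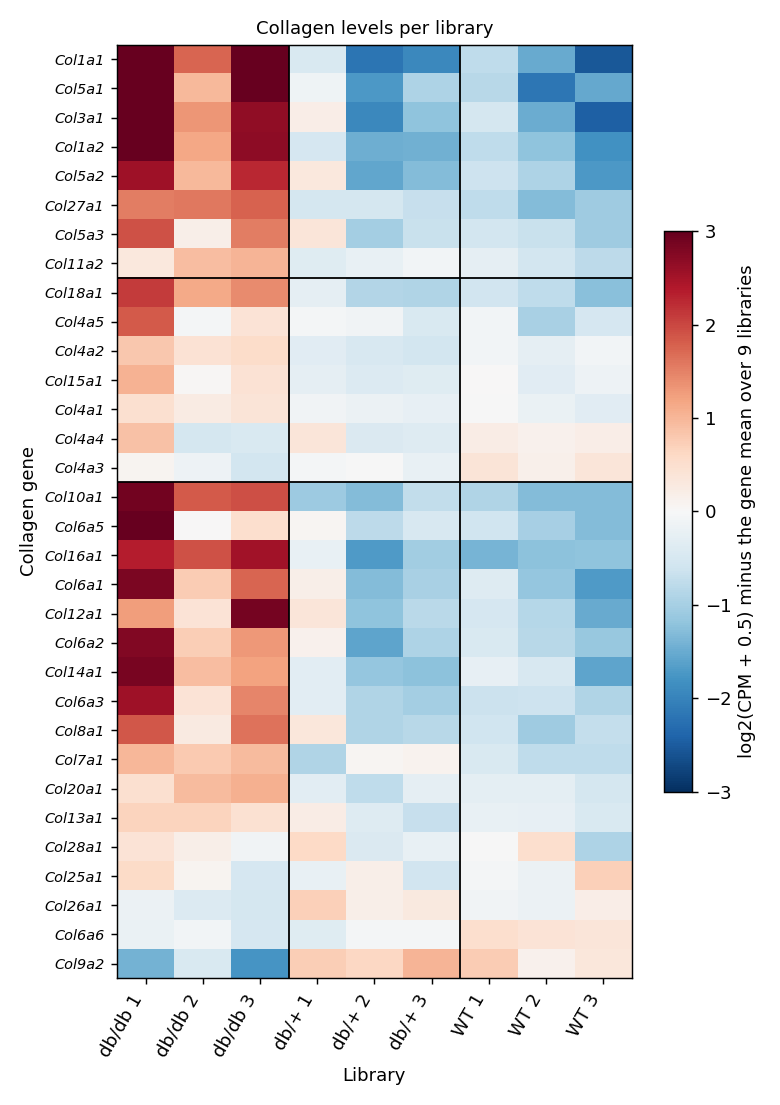
Level of each reported collagen in each library as log2(CPM + 0.5) minus that gene's mean over the 9 libraries, by class (lines between classes and between groups), with colours saturated at -3 and 3. The type I, III and V genes and Col6a1, Col6a2 and Col6a3 are paler in db/db 2 than in db/db 1, whereas Col27a1 and Col16a1 are similar in the 3 db/db libraries and Col9a2 is blue in them.

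Per length of transcript, which allows genes to be ranked against each other, type IV led in the controls and shared the lead with type III in db/db. Mean levels in db/db were 78.1 CPM per kilobase for Col3a1, 64.7 for Col4a1, 38.3 for Col1a2, 35.8 for Col4a2, 19.1 for Col27a1 and 17.9 for Col1a1. In db/+ they were 44.0 for Col4a1, 17.2 for Col4a2, 15.7 for Col6a6 and 7.41 for Col3a1. In WT they were 44.0 for Col4a1, 23.5 for Col6a6, 21.3 for Col4a2, 5.01 for Col15a1 and 4.92 for Col3a1. The order of Col3a1 and Col4a1 in db/db did not exceed the spread, since Col3a1 ran from 30.2 to 128 CPM per kilobase and Col4a1 from 59.1 to 70. In WT, Col6a6 (22.7 to 24.9) lay above Col4a2 (19.6 to 22.2) in every library, while Col15a1 (4.36 to 5.63) and Col3a1 (2.14 to 8.36) overlapped.

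The make-up of the collagen pool differed by genotype. Fibrillar genes held 50.8%, 33.7% and 48.6% of the counts of reported collagens in db/db, against 21%, 12.5% and 14.3% in db/+ and 14.2%, 10.7% and 8.6% in WT. Basement membrane genes held 28.8%, 45% and 33.2% in db/db, against 55.6%, 62.5% and 59.7% in db/+ and 57.8%, 59% and 61.7% in WT. With 3 libraries against 3, a two-sided exact permutation test cannot go below p = 0.10, so no test is given for these shares and ratios.

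Ratios between chains within a library separated the genotypes for some pairs and not for others. For the 2 chains of type I, the ratio of Col1a1 to Col1a2 per length was 0.448, 0.408 and 0.516 in db/db, against 0.272, 0.135 and 0.167 in db/+ and 0.263, 0.200 and 0.126 in WT, and no db/+ or WT library reached the lowest db/db value. The ratio of Col4a1 to Col4a2 was 1.70, 1.86 and 1.89 in db/db, against 2.46, 2.59 and 2.64 in db/+ and 2.23, 2.2 and 1.78 in WT, so db/db lay below db/+ and overlapped with WT. The multiplexins are separate collagens, and the ratio of Col15a1 to Col18a1 was 1.78, 1.75 and 1.91 in db/db, against 3.91, 5.62 and 5.91 in db/+ and 6, 5.37 and 9 in WT, with no overlap between db/db and either control group. The ratio of Col6a1 to Col6a2 overlapped, at 1.79, 1.76 and 2.32 in db/db, 1.82, 2.22 and 1.71 in db/+ and 1.83, 1.40 and 1.16 in WT. The ratio of Col5a1 to Col5a2 was 0.517, 0.313 and 0.604 in db/db, 0.222, 0.217 and 0.378 in db/+ and 0.245, 0.0788 and 0.299 in WT, so db/db lay above WT and overlapped with db/+. That of Col6a3 to Col6a1 was 0.495 to 0.523 in db/db, 0.439 to 0.876 in db/+ and 0.534 to 1.18 in WT, so db/db lay just below WT and overlapped with db/+. Groups overlapped for Col4a3 to Col4a4 (0.843 to 2.15 in db/db, 1.12 to 2.24 in db/+ and 1.60 to 1.77 in WT), for Col4a5 to Col4a6 (3.34 to 5.52 in db/db, 3.96 to 8.14 in db/+ and 4.75 to 7.12 in WT) and for Col3a1 to Col1a2 (1.98 to 2.23 in db/db, 1.47 to 3.35 in db/+ and 1.31 to 2.42 in WT).

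**Figure D5:**
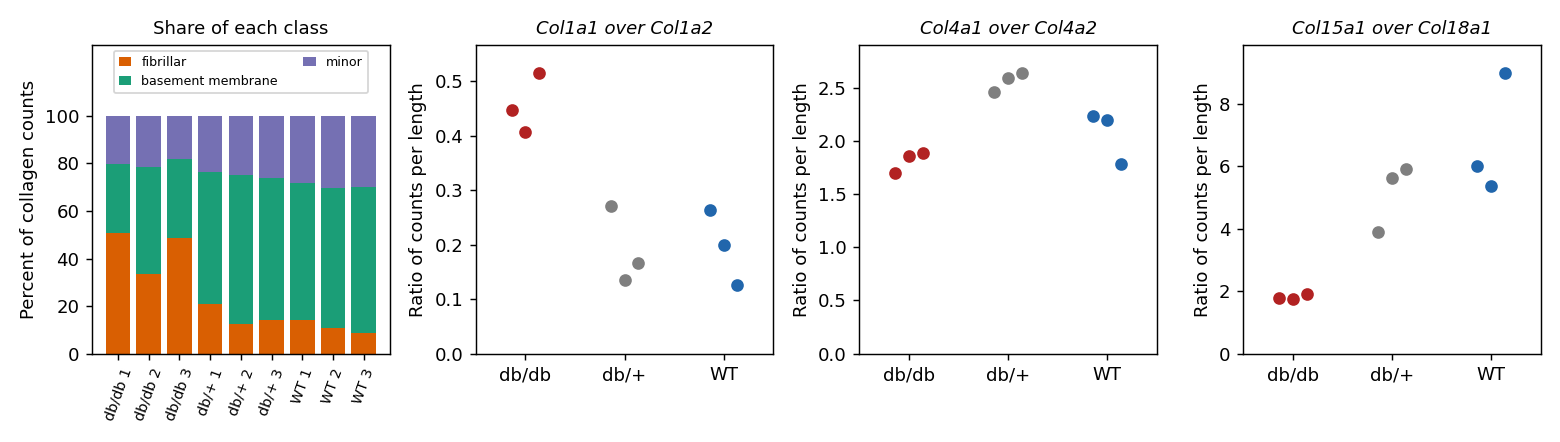
Share of each class in the counts of reported collagens per library (stacked bars, percent), and the ratio of Col1a1 to Col1a2, Col4a1 to Col4a2 and Col15a1 to Col18a1 per transcript length in each library (points) of db/db, db/+ and WT. Fibrillar genes hold 33.7% to 50.8% in db/db and 8.6% to 21% in the controls, and the Col15a1 to Col18a1 ratio lies at 1.75 to 1.91 in db/db and at 3.91 to 9 in the controls.

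Genes that modify, assemble, degrade or bind collagens were counted from lists taken from textbook knowledge. Of 73 listed symbols 54 were tested, and 32 rose and 2 fell in db/db against WT, with a median log2 fold change of 1.03, where 21.8% of all genes rose, 19.9% fell and the median was 0.01. Each count in the lists below stands against those shares. Of the same genes, 33 rose and 3 fell against db/+, with a median of 0.91 (20.6% and 19.7% of all genes), and between db/+ and WT 0 rose and 1 fell (0.606% and 0.82% of all genes). The gene that fell there was Adgrg1, a collagen-binding receptor, with 115, 128 and 117 CPM in db/+, against 143, 149.5 and 158 CPM in WT (-0.32 ± 0.07, adjusted p = 0.0458).

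In the endoplasmic reticulum list 10 of 20 genes rose against WT and 1 fell. P4hb, a subunit of the prolyl hydroxylase that stabilises the helix and also a general disulfide isomerase, had 2416, 2473 and 2764 CPM in db/db, against 1359, 1328 and 1326 CPM in db/+ islets and 1159, 1317 and 1230.3 CPM in WT. Its log2 fold change against WT was 1.05 ± 0.09 (adjusted p = 1.1e-06), and that of P4ha2, the partner catalytic subunit, was 0.92 ± 0.10 (adjusted p = 9.79e-06). Crtap, which belongs to the prolyl 3-hydroxylase complex, fell (-0.49 ± 0.17, adjusted p = 0.0278), with 12.3, 7.31 and 10.7 CPM in db/db, against 12.8, 14.8 and 13.9 CPM in db/+ islets and 14.3, 14.6 and 13.7 CPM in WT. Serpinh1, the collagen-specific chaperone, did not pass against WT (0.42 ± 0.16, adjusted p = 0.0525) and had 87.4, 53.1 and 61.5 CPM in db/db, 64.9, 65.9 and 63.0 CPM in db/+ islets and 54.8, 51.4 and 44.4 CPM in WT. Serpinh1, Adgrg1, Dcn, Pdgfra, Rgs5, Gli1, Mfap4, Cldn5, Col9a3 and Col19a1 are outside the rule for named genes and were chosen after their values were seen.

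Of the genes for procollagen cleavage and cross-linking 5 of 9 rose against WT and 0 fell. Lox, the cross-linking enzyme lysyl oxidase, had 5.35, 2.35 and 6.14 CPM in db/db, against 0.485, 0.0844 and 0.326 CPM in db/+ islets and 0.238, 0.0903 and 0 CPM in WT, where WT lay at or below the floor of 3 counts. It rose against WT (adjusted p = 3.5e-05), as did its relative Loxl3 (1.71 ± 0.34, adjusted p = 0.00118). Of fibril-associated genes 7 of 9 rose and 0 fell. Fn1, which encodes fibronectin, had 50.9, 58.5 and 45.7 CPM in db/db, against 1.21, 1.01 and 0.653 CPM in db/+ islets and 2.46, 10 and 1.32 CPM in WT (log2 fold change against WT 3.48 ± 0.56, adjusted p = 0.00282). WT 2 was the highest control library of Fn1. Fbn1, the microfibril protein fibrillin, rose by 2.80 ± 0.50 (adjusted p = 0.00474).

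Breakdown genes rose in 6 of 8 cases against WT and fell in 0. Mmp14, a membrane-bound collagenase, rose by 2.12 ± 0.28 on the log2 scale (adjusted p = 8.21e-05), with 22.4, 9.54 and 17.7 CPM in db/db, against 4.37, 3.37 and 3.18 CPM in db/+ islets and 4.52, 3.52 and 3.25 CPM in WT. Ctsk, the collagen-degrading protease cathepsin K, rose by 2.39 ± 0.35 (adjusted p = 1.01e-04). Receptor genes rose in 4 of 8 cases and fell in 1. Itgb1, the shared subunit of collagen-binding integrins, had 358, 336 and 347 CPM in db/db, against 243, 231 and 215 CPM in db/+ islets and 215, 218 and 192 CPM in WT (0.74 ± 0.08, adjusted p = 7.1e-06). Its partner Itga2 rose by 1.94 ± 0.34 (adjusted p = 5.34e-04). Ddr1, a receptor tyrosine kinase activated by collagen, fell (-0.32 ± 0.08, adjusted p = 0.00474), with 89.7, 96.7 and 97.8 CPM in db/db, against 99.6, 118 and 113 CPM in db/+ islets and 120.1, 121 and 115 CPM in WT.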

How the data were processed

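Total RNA was extracted with Trizol and ribosomal RNA was removed with Ribo-Zero Gold, per the labels' protocols. The submitters' processing notes name bcl2fastq 2.20.0.422, TopHat2 2.0.14 and the mm10 build. The authors deposited 1 table of raw counts per gene symbol, without normalisation. Which program, annotation and strand setting produced the counts is not given in the sources used here. The table has 1 column that matches no sample and was not used.

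Groups came from the genotype labels. Counts of all 9 libraries were fitted with edgeR 4.0.16 in R 4.3.3 (TMM factors, filterByExpr, robust quasi-likelihood F-test, 1 term per genotype, 6 residual degrees of freedom), and two-sided p-values were adjusted by Benjamini-Hochberg over 16826 genes, of 29854 with a count. Calls are at an adjusted p under 0.05, standard errors are the log2 fold change over the square root of F, and CPM use TMM library sizes. Levels per length divide CPM by the longest GENCODE vM1 transcript. The script was tested on simulated data. DESeq2 1.42.0 and limma-voom (limma 3.58.1) were alternatives, and figures were drawn with matplotlib 3.10.9. Within groups, Pearson's r of log2 CPM over genes was 0.968 to 0.984 in db/db, 0.985 to 0.987 in db/+ and 0.982 to 0.985 in WT. RefSeq (GRCm38.p6) gave a position for 32 and a promoter for 26 of the 32 reported collagens. The members and gene lists were chosen with earlier results of these data known. Named members are the fibrillar, basement membrane and minor genes with the highest mean CPM, other members past the threshold, and from each pathway list at most 2 higher and 2 lower genes with the smallest adjusted p against WT.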

Additional observations from a re-analysis of the deposited data

How the results depend on the processing

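No paired analysis was possible because the labels carry no replicate numbers. The main fit called 27, 25 and 1 collagens and 34, 36 and 1 processing genes in db/db against WT, db/db against db/+ and db/+ against WT. Tested against a 1.5-fold change, the calls were 16, 13 and 0 collagens and 16, 14 and 0 processing genes, where 1809, 1663 and 0 of all 16826 genes passed. With the title letter as a covariate they were 13, 7 and 0 collagens and 20, 10 and 0 processing genes, where 4425, 2033 and 45 of all genes passed. With the acinar covariate, 12 collagens and 15 processing genes passed in db/db against WT, and 0 and 0 in db/+ against WT. Of all genes, 4172 and 63 passed in these 2 comparisons. An alternative without the 3 libraries that hold both Xist and Y-linked counts was chosen after seeing the data. It leaves WT 2 as the only WT library, so its calls are not counted. Between db/+ and WT, 0 collagens and 0 processing genes passed with a non-robust dispersion or a transcript length correction, 3 and 3 without the low-count filter, 2 and 3 by DESeq2, and 0 processing genes with library totals alone. In the same order, 46 and 49 of 16826, 768 of 29854, 633 of 10297 and 197 of 16826 of all genes passed. By limma-voom the calls of Col5a1, Col12a1, Col4a5 and Col6a5 against WT ended, while Col4a3 passed there. Those of Col5a1 and Col12a1 against db/+ also ended. Leaving out each library gave 20 to 27, 17 to 26 and 0 to 2 collagens, and 28 to 37, 28 to 38 and 0 to 1 processing genes. Of all 17036 to 17278 genes tested in these fits, 5774 to 7004, 5441 to 6880 and 23 to 430 passed. With library totals alone the median of all genes shifted by -0.22 against WT, and 2176 genes rose and 5317 fell (29.0% higher, against 52.3% in the main fit); 23 collagens then rose and 3 fell. The log2 fold changes that turned sign were those of members that passed in no such comparison. Library totals gave -0.01 for Col28a1 against WT, and -0.03 for Col4a4 and -0.10 for Col28a1 against db/+. The title letter gave -0.67 for Col25a1 against db/+. A Y-linked covariate gave 0.89 for Col4a4 and 0.58 for Col25a1 against WT, and 0.32 for Col4a3 and 0.04 for Col6a6 against db/+. The length correction gave 0.03 for Col4a4 against WT. Without the 3 libraries, Col28a1 gave -0.55 against WT, and Col4a4 -0.48, Col28a1 -0.02 and Col25a1 -0.02 against db/+. Leaving out each library gave -0.12 to 0.65 for Col28a1, -0.51 to 0.27 for Col25a1 and -0.81 to 0.16 for Col4a4 against WT, and -0.09 to 0.59 for Col28a1, -0.47 to 0.61 for Col4a4, 0.00 to 0.68 for Col25a1, -0.28 to 0.07 for Col4a3 and -0.20 to 0.02 for Col6a6 against db/+. The causes of these shifts were not tested. Depth limits members with low counts: Col10a1 had 0 to 3 counts in each control library, Col9a2 0 to 6 in each db/db library and Col6a5 2 to 8 in each WT library.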
